A study of Mus musculus with 2 samples.

Results

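The Hippo pathway genes described here are the coactivators *Yap1* and *Wwtr1* (the gene of TAZ), the transcription factors *Tead1* and *Tead2*, the target genes *Ctgf* and *Cyr61*, the targets that also restrain the pathway, *Amotl2* and *Lats2*, and the upstream genes *Fat4* and *Ajuba*. They were chosen by name, and all 10 were found among the 31053 genes of the count tables. On mm10 with the GENCODE annotation, *Yap1* lies at chr9:7931999-8004596, *Wwtr1* at chr3:57455649-57575910, *Cyr61* at chr3:145646976-145649981, *Lats2* at chr14:57689662-57758388 and *Ajuba* at chr14:54567472-54577558, all on the minus strand. *Tead1* lies at chr7:112679318-112906807, *Tead2* at chr7:45215753-45233644, *Ctgf* at chr10:24595442-24598683, *Amotl2* at chr9:102716672-102733418 and *Fat4* at chr3:38886940-39011985, all on the plus strand. In newer annotation *Ctgf* and *Cyr61* are named *Ccn2* and *Ccn1*. Eye cups of e13.5 mouse embryos, freed of cornea, lens and optic nerve, were dissociated and sequenced as single cells, with 3 samples pooled into 1 library for each of 2 genotypes. The control library came from *Myrf* fl/fl eyes. The mutant library came from *Rx > cre Myrf* fl/fl eyes, in which a Cre recombinase under *Rx* control is directed at cells of the eye field lineage, such as the retinal pigment epithelium (RPE) and neural retina, rather than at mesenchyme, blood or vessels. A single library per genotype gives no measure of replicate spread. Differences were therefore not tested, and all intervals are 95% intervals that cover counting error only.

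The Hippo pathway is a kinase cascade in which the MST and LATS kinases phosphorylate YAP and TAZ and so keep them out of the nucleus. When the cascade is less active, YAP and TAZ enter the nucleus, bind TEAD factors and switch on targets such as *Ctgf*, *Cyr61* and *Amotl2*. In the developing eye, YAP and TAZ acting with TEADs are known for their part in the choice between RPE and neural retina and in the growth of retinal progenitors. Most of this control acts on the proteins, so transcript levels of the pathway genes do not report how active the pathway is.

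TEAD factors recognise the letters GGAATG, or CATTCC on the other strand. These letters are shown at the promoters of the members because they are the DNA sites through which YAP and TAZ reach their targets. Promoter windows of 300 bases, from 250 before to 50 after the start of transcription, were taken from RefSeq on GRCm38.p6, the assembly also called mm10. Windows were listed for 8 of the 10 members, and not for *Tead1* and *Ctgf*. The letters occurred on either strand in windows of 6 of these 8 members, and for 16.6% of all 27025 genes listed (14.7% of 32851 windows). No match was found in the windows of *Fat4* and *Tead2*, which says only that these letters are not in them. Each match is shown with 12 bases on either side, 5′ to 3′ on the strand of the gene, with the motif in capitals.
Yap1, chr9:8004720-8004749, minus strand: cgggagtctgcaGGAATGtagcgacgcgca
Wwtr1, chr3:57576029-57576058, minus strand: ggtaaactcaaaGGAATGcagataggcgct
Cyr61, chr3:145650071-145650100, minus strand: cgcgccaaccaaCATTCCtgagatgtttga
Amotl2, chr9:102717727-102717756, plus strand: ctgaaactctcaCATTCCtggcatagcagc
Lats2, chr14:57746102-57746131, minus strand: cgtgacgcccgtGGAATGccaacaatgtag
Ajuba, chr14:54577830-54577859, minus strand: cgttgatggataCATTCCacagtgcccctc
Ajuba, chr14:54577808-54577837, minus strand: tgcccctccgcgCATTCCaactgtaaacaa

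The match began 103 bases before the start in *Cyr61*, 65 in *Amotl2*, 141 in *Yap1* and 136 in *Wwtr1*. *Ajuba* held 2 matches, 186 and 164 bases before its start. The match of *Lats2* began at base 5 after the start in 1 of its 2 listed windows, and the other window held none. The windows of *Lats2* and *Amotl2* lie inside the gene spans given above, so the starts used are not the outermost ones. A match is a description of the letters and does not show that a TEAD factor binds there. The 250 bases before the start are given for *Cyr61*, a classic YAP target, for *Yap1* itself, and for *Fat4*, the member that differed most between the libraries, which has no match. The stretch of *Yap1* overlaps an annotated exon of *Gm45494* and that of *Fat4* an exon of *C230034O21Rik*, each on the other strand.
Cyr61, chr3:145649986-145650235, minus strand: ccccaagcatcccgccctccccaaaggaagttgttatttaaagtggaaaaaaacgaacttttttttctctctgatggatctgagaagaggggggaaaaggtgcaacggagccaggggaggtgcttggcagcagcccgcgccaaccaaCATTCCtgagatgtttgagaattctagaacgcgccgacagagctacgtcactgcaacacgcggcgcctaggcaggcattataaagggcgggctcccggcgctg
Yap1, chr9:8004597-8004846, minus strand: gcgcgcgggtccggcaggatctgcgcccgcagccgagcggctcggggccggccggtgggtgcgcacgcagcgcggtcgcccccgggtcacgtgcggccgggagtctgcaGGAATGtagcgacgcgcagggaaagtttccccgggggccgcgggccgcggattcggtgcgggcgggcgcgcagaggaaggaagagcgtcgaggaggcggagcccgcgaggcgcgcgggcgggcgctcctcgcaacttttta
Fat4, chr3:38886690-38886939, plus strand: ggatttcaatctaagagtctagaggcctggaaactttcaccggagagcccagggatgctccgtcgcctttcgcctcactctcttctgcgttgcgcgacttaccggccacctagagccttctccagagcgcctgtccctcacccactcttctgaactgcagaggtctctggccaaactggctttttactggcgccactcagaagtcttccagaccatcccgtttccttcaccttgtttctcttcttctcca

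The control library held 63483835 UMIs (unique molecular identifiers, 1 per captured transcript) in 6039 barcodes, of which 5451 were kept, and the mutant library held 75228861 in 6754 barcodes, of which 6309 were kept. Cells were grouped into 29 clusters, of which 23 were named "X-like" from marker genes, giving 15 classes. The other 6 clusters, with 28.3% of the control and 22.3% of the mutant cells, stayed unnamed. The RPE-like class held 255 control and 153 mutant cells, had UMIs of 11 of its 13 markers (*Rgr* and *Slc6a20a* were at 0), and was shallow, with a median of 3383 and 3853 UMIs per cell against 17122 and 15033 in the retinal progenitor-like cells. *Myrf*, the deleted gene, went from 155 UMIs, or 74.6 counts per 1000000 UMIs of the class (CPM), in the control RPE-like cells to 30 UMIs, or 20.1 CPM, in the mutant ones. The libraries shared 72 barcodes, 67 of them kept in both. Of these, 57 lay in 1 unnamed cluster in both libraries, where the counts of a pair of cells with the same barcode had a median correlation over genes of 0.895. Named classes held 16 cells with a shared barcode, 1 of them RPE-like, and without these barcodes the *Fat4* ratio given further on was -1.48 in place of -1.47.

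A level is the sum of a gene's UMIs in a class, per library, as CPM of that class total. UMIs of different genes are not compared, since capture at the 3′ end differs between genes, so each gene is followed across classes. Red blood cell-like cells, in which little of these genes is expected, give the level that free RNA can produce in deep cells. There, in control and mutant, *Yap1* reached 1.42 and 1.56 CPM, *Tead2* 7.57 and 9.24 CPM and *Fat4* 2.13 and 1.36 CPM, at median depths of 22426 and 22657 UMIs per cell. Shallow cells can hold a larger share of free RNA, and an unnamed cluster of 971 cells with a median of 688 UMIs gave 49.3 CPM of *Yap1*, 203 CPM of *Tead2* and 57.1 CPM of *Fat4* over both libraries. By library, *Fat4* was there at 72.7 CPM (52.2 to 98.6) from 41 control UMIs and at 38.3 CPM (22.7 to 60.5) from 18 mutant UMIs. *Yap1* was at 49.7 and 48.9 CPM and *Tead2* at 199 and 208 CPM, control and mutant. In the same cluster *Tead1* was at 98.6 CPM, *Cyr61* at 17.4 CPM and *Lats2* at 11.6 CPM, close to the 102, 20.2 and 10.9 CPM of the RPE-like cells over both libraries. The RPE-like cells lie in depth between this cluster and the red blood cell-like cells, and the part of free RNA in their levels was not tested.

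The coactivators were present in most classes of the eye and low in its neurons. *Yap1*, the gene of the transcriptional coactivator YAP, gave 89 UMIs (42.9 CPM, interval 34.4 to 52.7) in the control and 48 UMIs (32.1 CPM, 23.7 to 42.6) in the mutant RPE-like cells. Its level was 24.9 CPM in the retinal progenitor-like cells of both libraries, and 36.7 and 34.5 CPM in the periocular mesenchyme-like cells. The highest *Yap1* levels, in surface ectoderm-like cells of the control (45.4 CPM), RPE-like and mesenchyme-like cells, had overlapping intervals. In retinal ganglion cell-like cells *Yap1* was at 3.36 and 3.09 CPM. Beside these levels stand the shares of cells with a *Yap1* UMI, which were 27.5% and 23.5% in RPE-like cells against 2.86% and 3.27% in red blood cell-like cells.

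*Wwtr1*, the gene of the related coactivator TAZ, had its highest level in Schwann or neural crest-like cells, with 92.5 CPM (control) and 84.8 CPM (mutant). Tendon-type mesenchyme-like cells followed at 55.6 and 59.2 CPM, above periocular mesenchyme-like cells by 0.53 (0.23 to 0.80) and 0.74 (0.51 to 0.95) on the log2 scale. RPE-like cells had 34.7 and 28.1 CPM, and retinal progenitor-like cells 17.6 and 17 CPM. *Wwtr1* fell to 2.80 and 2.21 CPM in retinal ganglion cell-like cells, about the 2.13 and 2.43 CPM of red blood cell-like cells.

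The balance of the coactivators differed between lineages. *Yap1* gave 58.5% and 59.4% of the summed *Yap1* and *Wwtr1* UMIs in retinal progenitor-like cells, control and mutant. In Schwann or neural crest-like cells its share was 26.3% (13.4 to 43.1) and 20% (10.8 to 32.3), and in tendon-type mesenchyme-like cells it was 37.6% and 35.9%. RPE-like cells, at 55.3% (47.3 to 63.1) and 53.3% (42.5 to 63.9), overlapped the retinal progenitor-like cells. They also overlapped the periocular mesenchyme-like cells, at 48.6% (45.9 to 51.3) and 49.2% (46.6 to 51.8), so the share did not place them with either. In surface ectoderm-like cells the share was 74.4% (57.9 to 87) and 62.1% (42.3 to 79.3).

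The TEAD factors, which carry YAP and TAZ to DNA, differed between RPE-like and retinal progenitor-like cells. *Tead1* gave 233 UMIs (112 CPM, 98.3 to 128) in control and 133 UMIs (89 CPM, 74.5 to 105) in mutant RPE-like cells. This was above the retinal progenitor-like cells (41.2 and 42.1 CPM) by 1.45 (1.22 to 1.66) and 1.09 (0.80 to 1.35) on the log2 scale. Against melanocyte-like cells, the other pigmented class, *Tead1* was higher in RPE-like cells by 1.85 (1.31 to 2.54) and 1.31 (0.71 to 2.06). Schwann or neural crest-like cells (85.9 and 97.2 CPM) and photoreceptor precursor-like cells (89.1 and 57.1 CPM) had intervals that overlapped those of the RPE-like cells in both libraries. In the mutant, so did amacrine or horizontal precursor-like cells (82.3 CPM) and surface ectoderm-like cells (57.9 CPM, 40.1 to 80.9). Endothelium-like cells were low in *Tead1*, at 16.5 and 18.9 CPM. The shallow unnamed cluster described above gave 94 and 104 CPM, and the part of free RNA in the RPE-like level was not tested.

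*Tead2* ran the other way between the 2 derivatives of the optic cup. It was at 80.4 and 77.6 CPM in RPE-like cells and at 167 and 158 CPM in retinal progenitor-like cells, with log2 ratios of -1.05 (-1.29 to -0.83) and -1.01 (-1.30 to -0.75), control and mutant. Neurogenic retinal precursor-like cells had the highest *Tead2* level, 277 and 245 CPM, above the retinal progenitor-like cells by 0.73 (0.62 to 0.85) and 0.64 (0.52 to 0.75). In the control its interval (258 to 297) overlapped that of the amacrine or horizontal precursor-like cells (233 CPM, 197 to 275). Of the summed *Tead1* and *Tead2* UMIs, *Tead1* accordingly gave 58.2% and 53.4% in RPE-like cells, 19.8% and 21.1% in retinal progenitor-like cells and 31.3% in the periocular mesenchyme-like cells of each library. In the control, photoreceptor precursor-like (52.6%) and surface ectoderm-like cells (49.5%) had intervals that overlapped that of the RPE-like share (53.2 to 63.1). In the mutant, the RPE-like interval (47 to 59.7) was overlapped by those of the surface ectoderm-like cells (43.6%, 32.4 to 55.3), the Schwann or neural crest-like cells (41.4%, 32.9 to 50.2) and the photoreceptor precursor-like cells (36.7%, 23.4 to 51.7), which numbered only 28 and 29.

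**Figure D1:**
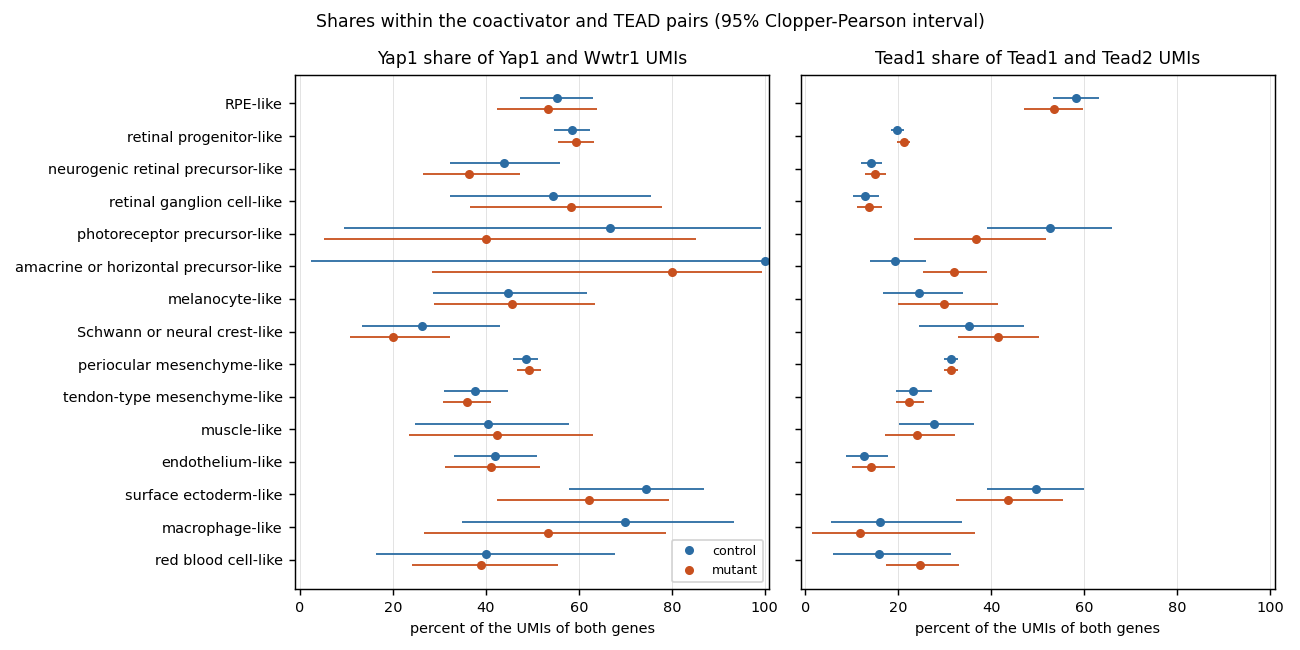
Share of *Yap1* among *Yap1* and *Wwtr1* UMIs (left) and of *Tead1* among *Tead1* and *Tead2* UMIs (right), in percent, for each class (rows) in the control (blue) and mutant (orange) library, with Clopper-Pearson intervals as bars. The RPE-like cells sit at 58.2% and 53.4% in the right panel, away from the retinal progenitor-like cells at 19.8% and 21.1%.

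Among the targets, *Ctgf* and *Cyr61*, which code for secreted matricellular proteins of the CCN family, differed in the classes where they were highest, though their levels over classes went together, with a correlation of 0.78 over the 30 points described further on. *Cyr61* was highest in tendon-type mesenchyme-like cells, with 253 UMIs (112 CPM) and 323 UMIs (87.8 CPM), control and mutant. That was 2.18 (1.95 to 2.41) and 1.76 (1.55 to 1.96) above the periocular mesenchyme-like cells on the log2 scale. Schwann or neural crest-like cells came next at 62.8 and 49.5 CPM, and their intervals did not overlap those of the classes on either side. RPE-like cells had 18.3 and 22.7 CPM, above retinal progenitor-like cells (5.91 and 5.13 CPM) by 1.65 (1.04 to 2.19) and 2.17 (1.52 to 2.75). Tendon-type mesenchyme-like cells also had the highest summed level of immediate early and dissociation stress genes of any named cluster, 2493 CPM against 501 CPM in RPE-like cells. *Cyr61* is itself induced quickly by many stimuli, and the part of dissociation in its level was not tested.

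*Ctgf* was the sparser target, with at most 26.4 CPM in any named class. Schwann or neural crest-like cells had 26.4 CPM (8 UMIs) and 17.7 CPM (10 UMIs), and retinal progenitor-like cells had 10.7 and 10.4 CPM (167 and 160 UMIs). In RPE-like cells 12 UMIs gave 5.78 CPM (2.99 to 10.1) for the control and 14 UMIs gave 9.36 CPM (5.12 to 15.7) for the mutant. No *Ctgf* UMI was found in the melanocyte-like cells of either library, where a count of 0 allows up to 3.48 and 4.53 CPM, nor in the photoreceptor precursor-like cells, where it allows up to 8.91 and 9.52 CPM.

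Within the retinal progenitor-like class, *Ctgf* was unevenly spread over the clusters. In the cluster led by *Hist1h2bc*, *Ccnb2* and *Dapl1*, with 121 and 117 cells, it reached 16.5 CPM (11.3 to 23.2) and 22.4 CPM (15.8 to 30.7). In the cluster led by *Fgf15*, *Sfrp2* and *Hist1h2ap* it was at 7.83 CPM (5.97 to 10.1) and 8.21 CPM (6.25 to 10.6). The largest cluster, of 381 and 465 cells and led by *Vax2os*, *Aldh1a1* and *Aldh1a3*, lay between, at 12.6 CPM (9.91 to 15.8) and 9.66 CPM (7.43 to 12.4), and its control interval overlapped both others. *Ajuba* was likewise highest in the first of these, at 51.9 and 42.4 CPM against 32.1 and 31.9 CPM in the *Fgf15* cluster and 32.9 and 25.3 CPM in the largest, whereas *Yap1* was at 23.7 and 27.1 CPM against 27.4 and 25.2 CPM in the *Fgf15* cluster. These clusters and leading genes were picked after their values had been seen.

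In the periocular mesenchyme-like class, *Ctgf* was concentrated in 1 of 5 clusters, of 215 and 245 cells, at 21.8 CPM (16.4 to 28.4) and 12.7 CPM (8.81 to 17.6). One control cell gave 15 of the 55 UMIs there, and without the top cell of each library the levels were 15.9 and 10.8 CPM. The other 4 clusters lay between 1.05 and 7.35 CPM. *Tead1* was also highest there, at 94.5 and 82.4 CPM, while *Cyr61*, at 29.4 and 27.8 CPM, did not stand out.

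*Amotl2* and *Lats2* are YAP targets whose proteins restrain YAP, *Amotl2* as an angiomotin that binds it and *Lats2* as the kinase that phosphorylates it. *Amotl2* had its highest levels in photoreceptor and neurogenic precursor-like cells. It was at 19.1 and 15.3 CPM in retinal progenitor-like cells, 45.8 and 42.6 CPM in neurogenic retinal precursor-like cells, 71.3 and 63.5 CPM in photoreceptor precursor-like cells and 31.9 and 38.2 CPM in retinal ganglion cell-like cells. Surface ectoderm-like cells (32.9 and 37.5 CPM) and melanocyte-like cells (32.5 and 24.1 CPM) lay near the last of these. Amacrine or horizontal precursor-like cells stood above the retinal progenitor-like cells in the mutant (39.1 CPM, log2 ratio 1.39, 0.73 to 1.92), and in the control the interval took in 0 (21.4 CPM, 0.27, -0.76 to 0.96). Red blood cell-like cells gave 0.709 and 1.75 CPM. RPE-like cells had 19.3 and 23.4 CPM, which in the control was at the level of the retinal progenitor-like cells (log2 ratio 0.04, -0.50 to 0.49).

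*Lats2* was sparse, with 22 and 17 UMIs in RPE-like cells (10.6 and 11.4 CPM). These levels were above those of retinal progenitor-like cells (4.5 and 3.9 CPM) by 1.28 (0.47 to 1.94) and 1.6 (0.68 to 2.34) on the log2 scale. Schwann or neural crest-like cells (19.8 and 19.4 CPM) and endothelium-like cells (15.4 and 13.9 CPM) were higher still in both libraries, with intervals that overlapped those of the RPE-like cells.

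Of the upstream members, *Fat4* codes for a giant protocadherin that acts as a cell surface receptor with its ligand Dchs1. *Fat4* was a gene of mesenchyme and RPE. Tendon-type mesenchyme-like cells had 68.9 and 54.9 CPM, and periocular mesenchyme-like cells 45.0 and 41.6 CPM. Control RPE-like cells, at 47.7 CPM (38.7 to 58.0), matched the periocular mesenchyme-like cells within counting error (log2 ratio 0.09, -0.23 to 0.39), and stood 1.38 (1.03 to 1.70) above retinal progenitor-like cells at 18.4 CPM. Mutant RPE-like cells, at 16.7 CPM (10.8 to 24.7), stood below the periocular mesenchyme-like cells (-1.26, -1.95 to -0.74) and near the retinal progenitor-like cells at 14.4 CPM (0.26, -0.44 to 0.81). Melanocyte-like cells of the control gave no *Fat4* UMI in a class total of 860836, which allows up to 3.48 CPM. Set against that limit, and with the RPE-like level taken as measured, *Fat4* was at least 13.7-fold higher in the control RPE-like cells, and the counting interval of the log2 ratio began at 3.45. Mutant melanocyte-like cells gave 2 UMIs (3.02 CPM), and RPE-like cells stood above them by a log2 ratio of 1.94 (0.47 to 5.59).

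*Ajuba*, a LIM domain protein that binds the LATS kinases and limits them, was high in surface ectoderm-like cells (51.6 and 52.8 CPM) and retinal progenitor-like cells (34.9 and 30.3 CPM). Schwann or neural crest-like cells had 52.9 and 26.5 CPM, from 16 and 15 UMIs. RPE-like cells followed with 26.0 and 22.1 CPM. In retinal ganglion cell-like cells *Ajuba* was at 3.36 and 3.53 CPM.

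**Figure D2:**
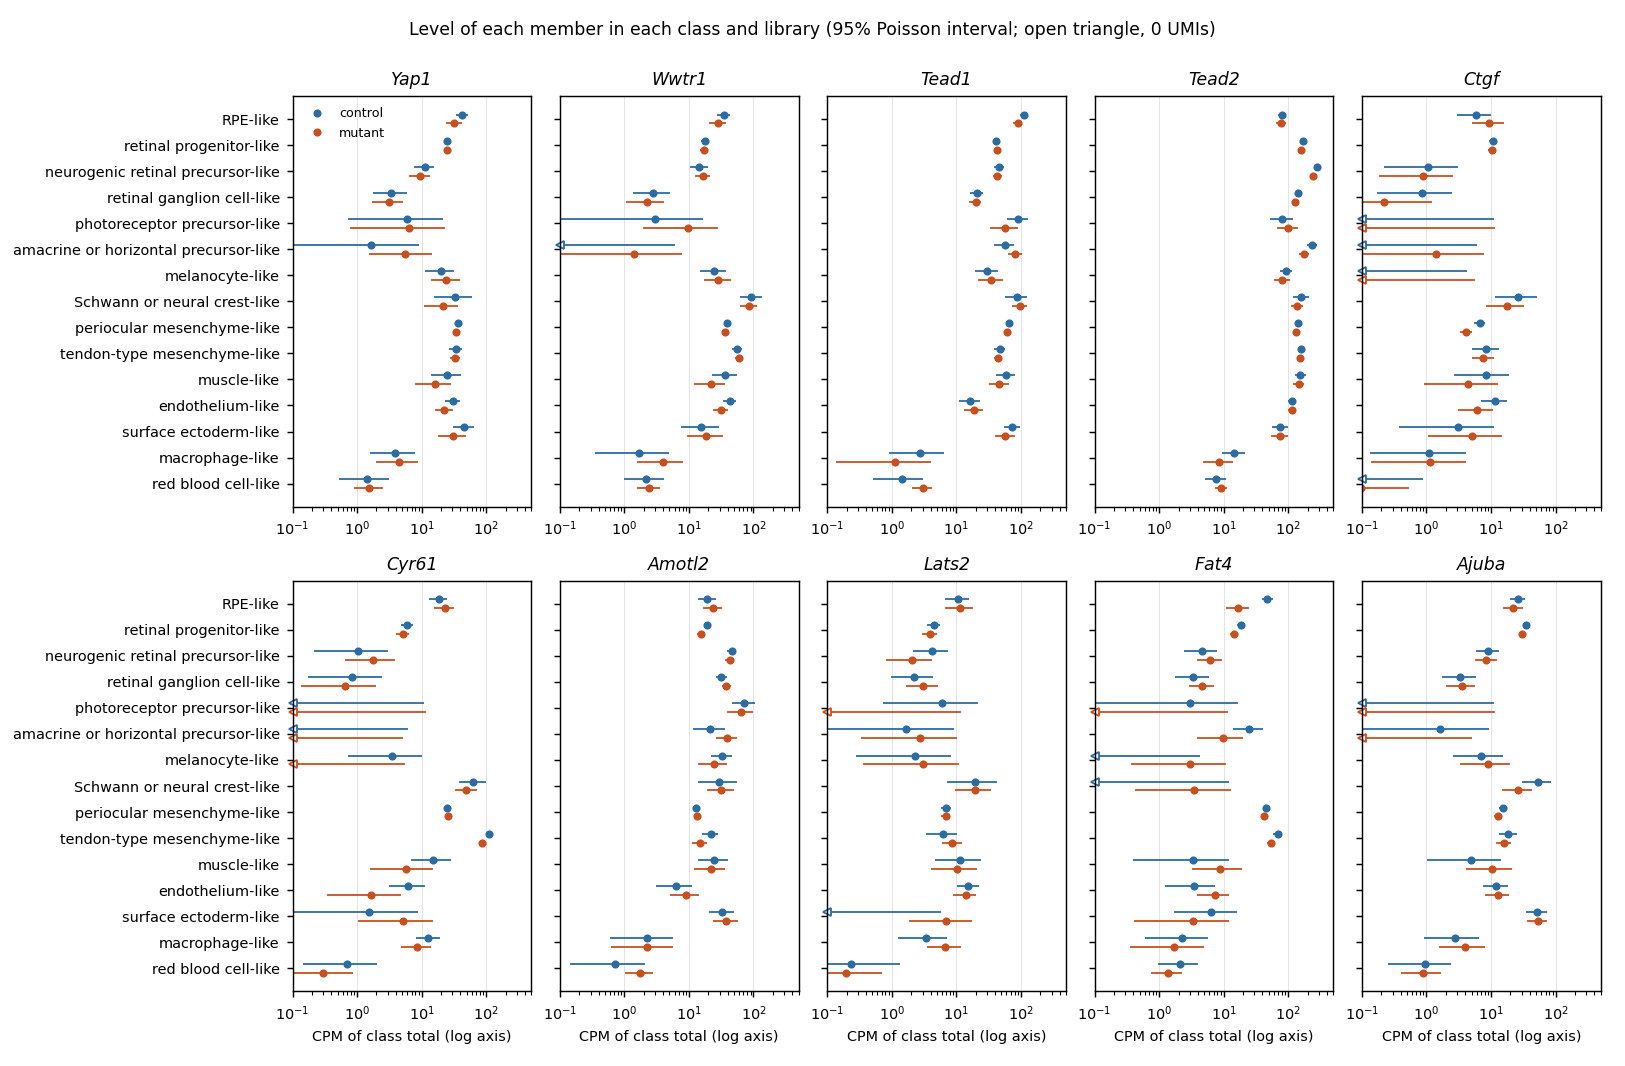
Level of each member (panels) in each class (rows), in CPM of the class total on a log axis, for the control (blue) and mutant (orange) library, with Poisson intervals as bars and open triangles for 0 UMIs. *Cyr61* peaks in tendon-type mesenchyme-like cells at 112 and 87.8 CPM, *Amotl2* in photoreceptor precursor-like cells at 71.3 and 63.5 CPM, and the *Fat4* levels of the RPE-like cells, 47.7 and 16.7 CPM, lie apart.

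From retinal progenitor-like cells to neurogenic retinal precursor-like and retinal ganglion cell-like cells, the members divided into those that fell and those that did not. In neurogenic retinal precursor-like cells, *Yap1* was lower than in retinal progenitor-like cells by log2 ratios of -1.11 (-1.72 to -0.63) for control and -1.37 (-1.98 to -0.89) for mutant cells. *Fat4* was lower by -1.92 (-2.95 to -1.22) and -1.16 (-1.95 to -0.58), and *Ajuba* by -1.89 (-2.57 to -1.37) and -1.78 (-2.42 to -1.29). *Wwtr1* was not yet lower there, at -0.27 (-0.81 to 0.18) and -0.03 (-0.49 to 0.37), but in retinal ganglion cell-like cells it stood at -2.52 (-3.73 to -1.75) and -2.81 (-4.02 to -2.04). *Yap1* and *Ajuba* had reached -2.77 and -3.26 there in the control and -2.92 and -3.01 in the mutant. In amacrine or horizontal precursor-like cells, by contrast, the intervals of *Fat4* against retinal progenitor-like cells took in 0, at 0.51 (-0.44 to 1.17) and -0.38 (-1.89 to 0.51).

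*Amotl2* moved the other way at both steps, with 1.27 (0.96 to 1.57) and 1.48 (1.17 to 1.78) in neurogenic retinal precursor-like cells and 0.75 (0.42 to 1.06) and 1.32 (1.03 to 1.61) in retinal ganglion cell-like cells. *Tead2* stayed close to its progenitor level in retinal ganglion cell-like cells, at -0.24 (-0.38 to -0.10) and -0.32 (-0.45 to -0.19). *Tead1* was lower there, at -0.97 (-1.36 to -0.64) and -1.07 (-1.42 to -0.76). It was higher in photoreceptor precursor-like cells of the control (1.16, 0.53 to 1.64) and amacrine or horizontal precursor-like cells of the mutant (0.99, 0.56 to 1.35). For each of these classes, the interval of *Tead1* in the other library took in 0. *Ctgf* gave 167 and 160 UMIs in retinal progenitor-like cells and 3 and 3 in neurogenic retinal precursor-like cells, with log2 ratios of -2.95 (-5.65 to -1.78) and -3.15 (-5.85 to -1.99). One of the 2 retinal ganglion cell-like clusters was shallow, with a median of 1757 UMIs per cell and 12.2 CPM of *Yap1* over both libraries (16 UMIs), against 1.47 CPM (10 UMIs) in the deeper one at 16139 UMIs per cell.

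Between genotypes, the RPE-like cells were the class of interest because *Myrf* is a gene of the RPE at this stage and is deleted there. Ratios set mutant over control on the log2 scale with 1 UMI added to each sum, and a difference of 1.5-fold or more was called among genes whose UMIs in the class came to 10 or more over both. Of the 10 members, all with enough UMIs, 1 was lower past the fold (*Fat4*), 1 was higher (*Ctgf*) and 8 lay between. Over all 11203 genes counted, 12.3% were lower and 8.85% higher past the fold. The median ratio was -0.13 for the members and -0.03 for all genes. The interval lay wholly below 0 for 2 members, *Fat4* and *Tead1*, and for 8.2% of all genes, and wholly above 0 for no member and for 6.45% of all genes.

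*Fat4* was the member that differed most. It gave 99 UMIs (47.7 CPM, 38.7 to 58.0) in the control and 25 UMIs (16.7 CPM, 10.8 to 24.7) in the mutant RPE-like cells. The ratio was -1.47 (-2.21 to -0.87) on the log2 scale, and the intervals of the levels did not overlap. The share of RPE-like cells with a *Fat4* UMI was 26.3% and 15% for control and mutant, against 4.29% and 2.65% in red blood cell-like cells. At a common depth of 3000 UMIs per cell, reached by all but 124 and 73 of the RPE-like cells, the shares were 10.7% (5.97 to 17.3) and 7.5% (2.8 to 15.6), so that a difference in shares was not detectable at that depth. At 6000 UMIs per cell, with 119 and 71 cells left, they were 31.9% (23.7 to 41.1) and 9.86% (4.06 to 19.3), and the intervals did not overlap. The cell with most *Fat4* UMIs held 5.05% of them (control) and 8% (mutant).

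Most *Fat4* UMIs came from deep cells. In RPE-like cells of 6000 UMIs or more, 119 control and 71 mutant, *Fat4* was at 50.1 CPM from 94 UMIs and 16.9 CPM from 23 UMIs, a ratio of -1.52 (-2.30 to -0.90). Shallower cells gave only 5 and 2 UMIs. In the shallow unnamed cluster described above, *Fat4* was at 72.7 and 38.3 CPM, control and mutant, and the part of free RNA in the RPE-like ratio was not tested. Among the 64 and 45 cells assigned to male embryos the ratio was -1.35 (-2.29 to -0.60), and among the 43 and 15 assigned to female embryos it was -1.48 (-5.15 to 0.13). Sex is not among the sample labels used here, and these cells are only part of the 255 and 153 RPE-like cells. With RPE-like cells taken by a rule per cell it was -0.88 (-1.36 to -0.45). The gene overlaps *C230034O21Rik* and *Gm43539* on the opposite strand, which gave 1 and 0 and 0 and 1 UMIs in the control and mutant RPE-like cells.

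Other gene lists moved in the same cells, and their part in the *Fat4* difference was not tested. All 23 G2/M genes and all 20 S phase genes were higher in the mutant RPE-like cells, with summed levels of 1344 and 2389 CPM and of 613 and 900 CPM. The 13 RPE markers summed to 14028 CPM in the control and 9911 CPM in the mutant, and 9 of the 11 counted were lower. The summed level of 12 retinal ganglion cell markers, with 9 of the 10 counted lower and none at 0 in both libraries, was 285 and 134 CPM. The 14 periocular mesenchyme markers, whose cells express *Fat4*, summed to 239 and 224 CPM, with 6 of the 12 counted lower and 6 higher and no marker at 0 in both libraries. Retinal progenitor markers summed to 1292 and 1026 CPM, melanocyte markers, which include pigment genes that the RPE also expresses, to 9773 and 7588 CPM, and stress genes to 503 and 498 CPM. Markers of neurogenic retinal precursors, a class whose own *Fat4* was at 4.55 and 6.17 CPM, were higher in the mutant RPE-like cells, at 244 and 520 CPM, with 4 of the 5 counted higher and *Olig2* at 0 in both libraries. Tendon-type mesenchyme markers stood at 11.6 and 29.4 CPM, with all 3 counted higher and *Tnmd*, *Mkx* and *Aspn* at 0. Surface ectoderm markers were lower, at 2195 and 1562 CPM, with 3 of the 5 counted lower and *Krt14* and *Cdh1* at 0.

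The other members differed by less than 1.5-fold or within counting error. *Tead1* had a ratio of -0.33 (-0.65 to -0.02), *Yap1* of -0.40 (-0.95 to 0.11), *Wwtr1* of -0.29 (-0.89 to 0.27) and *Tead2* of -0.05 (-0.41 to 0.30). *Ctgf*, past the fold at 0.68, rested on 12 and 14 UMIs, and its interval of -0.52 to 1.94 took in 0. For *Cyr61* the ratio was 0.32 (-0.40 to 1.02), for *Amotl2* 0.29 (-0.42 to 0.97), for *Lats2* 0.12 (-0.90 to 1.08) and for *Ajuba* -0.22 (-0.91 to 0.41). These intervals leave room for differences of 1.5-fold in either direction for *Lats2*, in the upward direction for *Ctgf*, *Cyr61* and *Amotl2*, and in the downward direction for *Yap1*, *Wwtr1*, *Tead1* and *Ajuba*.

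**Figure D3:**
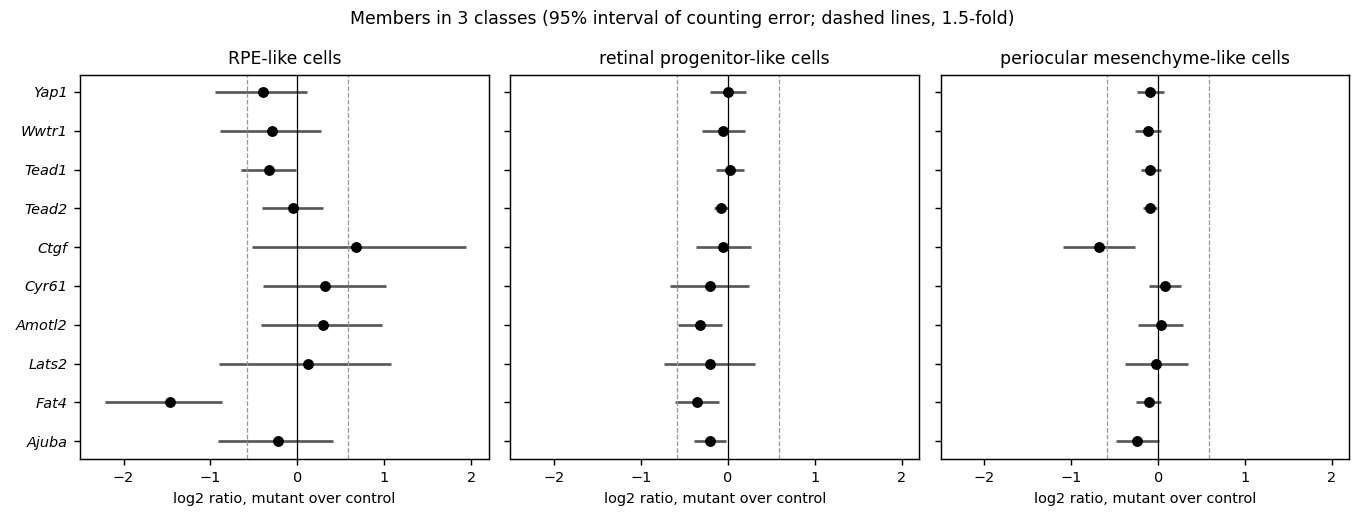
Log2 ratio of mutant over control for each member in RPE-like, retinal progenitor-like and periocular mesenchyme-like cells, with counting intervals as bars and dashed lines at 1.5-fold. *Fat4* at -1.47 in RPE-like cells lies past the fold, as does *Ctgf* at 0.68 in RPE-like and -0.68 in periocular mesenchyme-like cells, and every member lies within it in retinal progenitor-like cells.

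In retinal progenitor-like cells, which also carry the deletion, no member passed the fold, against 4.93% of 13629 genes lower and 3.29% higher. Counting intervals are narrow here. They lay wholly below 0 for 4 members, against 8.55% of all genes. These were *Fat4* at -0.35 (-0.61 to -0.10), from 287 and 222 UMIs, *Amotl2* at -0.32 (-0.57 to -0.07), *Ajuba* at -0.21 (-0.39 to -0.02) and *Tead2* at -0.08. *Yap1*, from 387 and 384 UMIs, was at 0.00. Without a second library of either genotype, such small ratios cannot be told from differences between library preparations.

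Periocular mesenchyme-like cells are not deleted by *Rx > cre* for the most part and serve as a comparison. Of the members, *Ctgf* passed the fold downward, at -0.68 (-1.10 to -0.27) from 116 and 88 UMIs, against 5.6% of 14387 genes lower and 2.99% higher. Its interval and that of *Tead2* (-0.09) lay wholly below 0, against 12.1% of all genes. One control cell held 15 of the 116 *Ctgf* UMIs. Without the top cell of each library, an alternative chosen after seeing the data, the ratio was -0.56, no longer past the fold, with an interval wholly below 0. *Fat4* was at -0.11 in this class, from 787 and 884 UMIs, within an interval that took in 0, and the difference of its ratio between classes was not tested. Over the clusters of this class the *Fat4* ratio was -0.16, 0.05, 0.00, -0.09 and -0.67, the last from 84 and 63 UMIs. The last was past the fold, and without the top cell of each library it was -0.67 (-1.19 to -0.18), with an interval wholly below 0.

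Elsewhere, intervals wholly below 0 were found for *Tead2* in neurogenic retinal precursor-like cells (-0.18, with 5.23% of all genes) and in amacrine or horizontal precursor-like cells (-0.41, with 3.67%). In tendon-type mesenchyme-like cells they were found for *Cyr61* (-0.35) and *Fat4* (-0.33), with 6.37% of all genes. By the fold rule, *Fat4* was lower in 3 and higher in 1 of the 9 classes in which it was counted. The 3 were the RPE-like, the amacrine or horizontal precursor-like and the red blood cell-like cells. In red blood cell-like cells, taken above as the background, *Fat4* was at 2.13 and 1.36 CPM, control and mutant, and the median ratio of all genes was 0.35. In amacrine or horizontal precursor-like cells *Fat4* gave 15 UMIs (24.7 CPM, 13.8 to 40.7) and 7 UMIs (9.76 CPM, 3.93 to 20.1), control and mutant, with overlapping intervals.

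The wider pathway in RPE-like cells was followed through 65 other genes, of which 56 had at least 10 UMIs. Past the fold were 4 lower (*Crim1*, *Crb2*, *Amotl1* and *Arhgef17*) and 4 higher (*F3*, *Tead4*, *Nt5e* and *Rbms3*), against 12.3% lower and 8.85% higher of all genes, and the median of the 56 was 0.03. *Crb2*, *Arhgef17*, *Nt5e* and *Rbms3*, and *Vgll4* and *Tgfb2* below, are named after their values had been seen. None of the 14 genes of the kinase core and its regulators passed the fold in either direction. *Lats1*, the partner kinase of *Lats2*, gave 33 and 18 UMIs with a ratio of -0.37 (-1.32 to 0.47). The 5 relatives of *Ajuba* and other LIM proteins all lay within the fold, with *Wtip* at 103 and 99 CPM and *Limd1* at 23.6 and 17.4 CPM.

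Among the relatives of *Fat4*, *Fat1* did not share its difference, at 109 and 85 UMIs and a ratio of 0.12 (-0.31 to 0.54), and *Fat3* gave 17 and 11 UMIs (-0.11). *Dchs1*, the gene of the ligand of Fat4, was chosen after its values had been seen, and had 53 and 25 UMIs with a ratio of -0.58 (-1.36 to 0.10). *Tead3* gave 28 and 19 UMIs (-0.06) and *Tead4* 6 and 7 UMIs (0.67, -1.10 to 2.55). Of the angiomotins, which hold YAP at junctions, *Amotl1* was lower past the fold, with 29.9 and 18.1 CPM (-0.70, -1.43 to -0.05), while *Amot* was at 11.1 and 9.36 CPM (-0.20). *Crb2*, a polarity gene of the Crumbs family, gave 36 and 13 UMIs (-0.93, -2.03 to -0.05), and *Vgll4*, whose protein competes with YAP for TEADs, 213 and 111 UMIs (-0.46, -0.81 to -0.13).

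Other reported YAP targets lay on both sides of 0. Of 15 counted, 2 were lower and 3 higher past the fold, beside the 12.3% and 8.85% of all genes. *Crim1*, which codes for a membrane protein that binds BMPs, gave 89 UMIs (42.9 CPM) and 26 UMIs (17.4 CPM), a ratio of -1.26 (-1.99 to -0.66). *F3*, the gene of tissue factor, which starts blood clotting, gave 37 UMIs (17.8 CPM) and 57 UMIs (38.1 CPM), a ratio of 1.08 (0.48 to 1.74). *F3* was highest in surface ectoderm-like cells, at 97 and 158 CPM, where its ratio was 0.70 (0.23 to 1.19). *Tgfb2*, the gene of a TGF-beta ligand, gave 114 and 112 UMIs in RPE-like cells (0.45, 0.06 to 0.84).

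**Figure D4:**
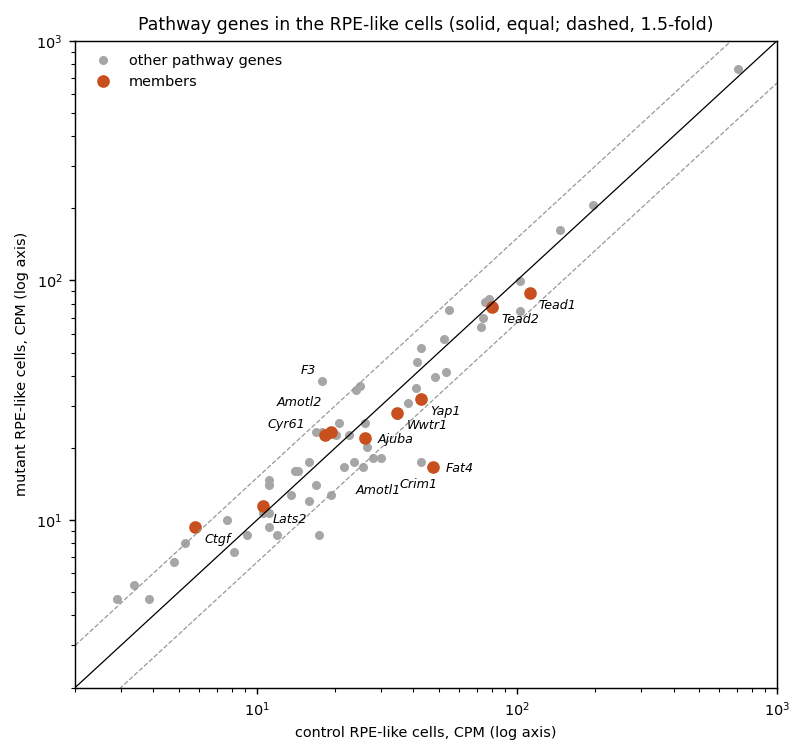
Members (orange) and other pathway genes (grey) with at least 10 UMIs in RPE-like cells, as CPM in the control (x) and mutant library (y) on log axes, with a solid line at equal levels and dashed lines at 1.5-fold. *Fat4* (47.7 and 16.7 CPM) and *Crim1* (42.9 and 17.4 CPM) lie below the band and *F3* (17.8 and 38.1 CPM) above it.

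The pattern of each member over the 15 classes of both libraries, 30 points in all, was compared with that of 12253 genes by Pearson's correlation of log2(CPM + 1). The points share their libraries and are not independent, so the values are descriptions. *Yap1* and *Wwtr1* had the highest correlation of any member pair, 0.90, and *Cyr61* and *Amotl2* the lowest, -0.11. Most like *Yap1* were *Fkbp9* (0.933), *Id3* (0.920) and *Hadh* (0.914), and most like *Wwtr1* were *Fkbp9* (0.901), *Yap1* (0.897) and *Sparc* (0.892). For *Tead1* these were *Arhgef17* (0.921), *Nedd4* (0.909) and *Ryk* (0.909), and for *Tead2* *Msantd3* (0.963), *Fxyd6* (0.961) and *Rhobtb3* (0.939).

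For the targets, *Ctgf* was most like *Mest* (0.894), *Id3* (0.840) and *Sparc* (0.833), *Cyr61* like *Col25a1* (0.884), *Oaf* (0.880) and *Sec24d* (0.879), and *Amotl2* like *Ift43* (0.939), *Pcbp4* (0.918) and *Bcl7a* (0.915). *Fat4* was most like *Gucy1a1* (0.833), *Cacna1g* (0.820) and *Triqk* (0.819), *Ajuba* like *Polr3g* (0.901), *Erf* (0.864) and *Gli3* (0.851), and *Lats2*, the sparsest, like *Vcl* (0.775), *Zcchc24* (0.773) and *Sparc* (0.761).

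**Figure D5:**
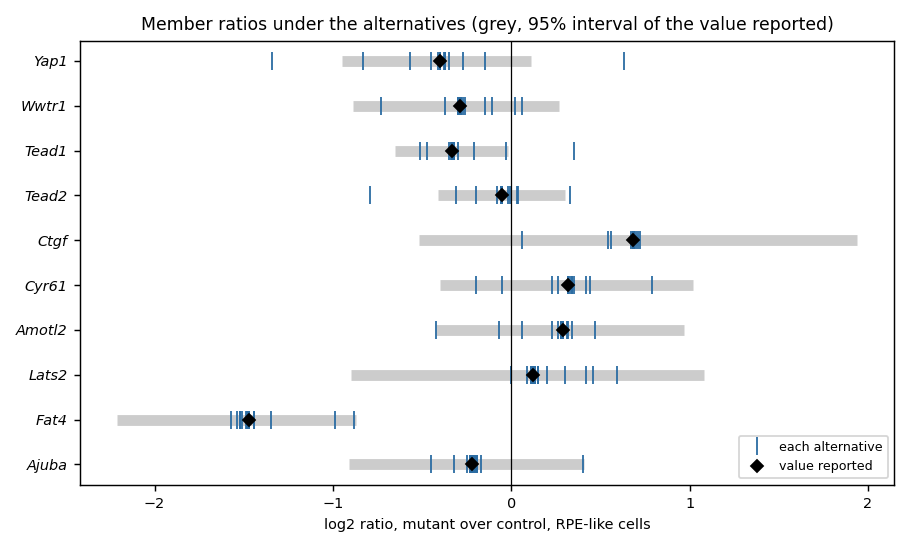
Log2 ratio of mutant over control in RPE-like cells for each member (diamonds), its counting interval (grey bar) and its value under each processing alternative that gave a ratio of sums (blue ticks), which leaves out the mean of log values per cell. The *Fat4* ticks lie between -1.57 and -0.88, whereas those of *Yap1*, *Wwtr1*, *Tead1*, *Tead2*, *Cyr61*, *Amotl2* and *Ajuba* lie on both sides of 0.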

How the data were processed

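The data are 2 libraries of the 10X Genomics 3′ assay, from e13.5 mouse eye cups of 2 genotypes. The authors aligned reads with Cell Ranger 7.1.0 to mm10 and deposited a matrix of UMI counts for each library, without normalization. The control matrix holds 6039 barcodes, the number of control cells the study reports, and only 5 control and 9 mutant barcodes had under 200 genes. The study's limit on mitochondrial UMIs had not been applied, since 515 control and 371 mutant barcodes were over it. Whether counting used strand or introns is not given in the sources used here, and the study itself analysed cells with Seurat 4.1.1.

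Following the study, cells needed 200 genes and at most 15% of UMIs from mitochondrial genes. Scrublet (scanpy 1.11.5, expected share 5%) called 1.23% and 1.02% of these cells doublets, and they were removed. The study's upper limit of 2000 UMIs was run as an alternative only, since it would leave out 4270 control and 5210 mutant cells. Cells were integrated and clustered in Seurat 5.3.0 under R 4.3.3 with 30 dimensions at resolution 0.8. Variable features left out the pathway genes. Clusters were named from marker lists, with thresholds set after the clusters had been seen.

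UMIs were summed per class and library in Python 3.11.15 with scipy 1.17.1. Intervals are exact Poisson for a level, Clopper-Pearson for a share and exact conditional binomial for a ratio, and a count of 0 was given the level of 3 UMIs per library as its upper limit. To compare shares of cells, cells were thinned to 3000 UMIs. Ratios and their intervals were run on simulated Poisson counts. These hold no spread between cells, embryos or libraries, so the run cannot tell how the intervals fare with such spread. Genes named were all members, their family members, and other pathway genes with at least 50 UMIs in RPE-like cells, a ratio past 1.5-fold and an interval without 0. The members and gene lists were chosen with earlier results of these data known. Positions and overlapping genes came from GENCODE on GRCm38. The e15.5 and P0 samples were not analysed here.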

Additional observations from a re-analysis of the deposited data

Results flagged for a closer look

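Both results below lie in an unnamed cluster that no comparison used, and were picked out because their level was above that of every named class in both libraries. In that cluster of 60 control and 63 mutant cells, which holds most of the barcodes shared by the libraries and had a median of 1100 UMIs per cell, *Ctgf* was at 235 CPM and *Cyr61* at 682 CPM. By library, *Ctgf* gave 21 UMIs (238 CPM) in the control and 20 UMIs (232 CPM) in the mutant, and *Cyr61* 56 UMIs (636 CPM) and 63 UMIs (729 CPM). The same cells gave 1 and 0 UMIs of *Yap1*, and their summed level of dissociation stress genes, 10329 CPM, was above the 2493 CPM of tendon-type mesenchyme-like cells. Their leading genes were *Cxcl14*, *Gm11361* and *S100a4*. The counts of cells paired by barcode had a median correlation over genes of 0.895, and the libraries are not 2 independent measurements of these cells. Of the 123 cells of the cluster, 114 (92.7%) carried a barcode found in both libraries, so these levels describe mostly such cells. Levels without them were not computed, and how the barcodes came to be shared was not tested.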

How the results depend on the processing

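In RPE-like cells, 1 member was lower and 1 higher past the fold, with a median log2 ratio of -0.13. With the study's limit of 2000 UMIs per cell, only 2 members kept 10 UMIs, and the counts were 2 lower and 0 higher with a median of -1.06. In cells of male embryos 3 were lower and 0 higher. None was higher (0) under the limit of 20000 UMIs, a minimum of 50 UMIs or a fold rule of 2, the last 2 by construction, since *Ctgf* has 26 UMIs and a ratio of 0.68. The cause was not tested for the others. Under every other alternative that gave counts, both stayed at 1, but the member higher was *Cyr61* (0.79) with a mitochondrial limit of 5%, *Yap1* (0.63) in cells of female embryos and *Lats2* (0.59) with RPE-like cells taken by a rule per cell. *Fat4* kept its sign under all 18 alternatives that gave it a value, from -1.57 to -0.88 as log2 ratios of sums and -0.14 as a difference of mean log values per cell. The fold rule of 2 and the minimum of 50 UMIs leave its ratio unchanged by construction, and several others keep nearly the same cells. *Ctgf* and *Lats2* did not turn under the 15 and 17 alternatives that gave them a value. *Ctgf* fell to 0.06 with the rule per cell, and *Lats2* to 0.00 with the mitochondrial limit of 5%. *Yap1* ranged from -1.34 to 0.63, *Tead1* from -0.51 to 0.35 and *Cyr61* from -0.20 to 0.79. Levels and pair shares at resolutions of 0.4 and 1.6 stayed within counting error, whereas thinning to 1500 or 6000 UMIs moved 45 of 60 shares of cells each, as it must with depth. The photoreceptor precursor-like class, of 28 and 29 cells, grew to 108 and 152 cells without integration. No cluster took that name (0 cells) under the limit of 20000 UMIs or the mitochondrial limit of 5%, and its levels were not compared in these settings. Leaving out barcodes found in both libraries, cells under 6000 UMIs, and the top cell of a gene in periocular mesenchyme-like cells was chosen after seeing the data. No paired analysis was possible because each genotype has 1 library. Sparse genes such as *Ctgf* and *Lats2* are limited by depth.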
